A study of Homo sapiens with 8 samples.

Results

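The genes described here are 6 that make, cut or bind hyaluronan in human breast epithelial cells: the synthases HAS2 and HAS3, the hyaluronidase HYAL2, the receptors CD44 and LAYN, and the secreted binder TNFAIP6. They were followed in trMCF clone 11 cells given all-trans retinoic acid (ATRA), in trMCF clone 11 cells without it, and in MCF-10F cells. A probe set, the group of probes that gives a single value on the array, was taken for a gene when that gene was the only symbol the platform annotation gave it. By this rule the 6 genes of 19775 had 23 of the 54613 probe sets, namely 13 for CD44, 3 for LAYN, 2 each for HAS2, HAS3 and TNFAIP6, and 1 for HYAL2. Each gene other than CD44 is described first by its brightest probe set (by mean log2 level), and CD44 by all 13.

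RNA was measured on 8 Affymetrix U133 Plus 2.0 arrays, 2 in each of 4 groups. The first group was trMCF clone 11, grown from a single ring-cloned colony of MCF-10F cells that had been transformed by a high dose of estradiol, and it stands for 1 clone. The same clone kept for 26 days in 1 μM or in 10 μM ATRA gave the next groups, and MCF-10F, a spontaneously immortalized line with normal-like behavior, gave the last. Every group therefore derives from MCF-10F cells, and estradiol exposure came before the cloning. Vehicle-treated clone cells were the study's control for ATRA, but the labels do not say whether the arrays of trMCF clone 11 hold them. The vehicle was DMSO. The labels of trMCF clone 11 array 1 tag it as normal, while its title gives the clone, and the title was followed. Whether a group's arrays were made from separate cultures is not in the labels, so p-values measure only the spread between these arrays, which may be technical. The question behind the comparisons was which genes differ in the transformed clone and whether ATRA moves them back toward MCF-10F.

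Hyaluronan is a long, unbranched sugar polymer of the space around cells. Synthases in the plasma membrane build it from UDP-sugars and push the growing chain outward, and hyaluronidases cut it. CD44 is its main receptor on the cell surface and is widely used as a marker of stem-like breast cells, and its messenger RNA is spliced into a standard form and several variant forms. LAYN (layilin) is a membrane receptor with a lectin-like domain, and TNFAIP6 (also called TSG-6) is a secreted protein that helps to crosslink hyaluronan in inflamed or remodeling matrix. Retinoic acid acts through nuclear receptors that bind DNA at pairs of a short half-site, AGGTCA.

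Of the 6 genes, 4 had a RefSeq promoter window in GRCh38.p14, 250 bases before to 50 bases after a start site, and AGGTCA was searched there on both strands. CD44 (chromosome 11, 35139171 to 35232402) held the half-site on its own strand, 52 to 47 bases before the start. TNFAIP6 (chromosome 2, 151357592 to 151381340) held it on the opposite strand over the same distance, 52 to 47 bases before its start. These windows are shown because both genes had lower signals under ATRA than in MCF-10F. For TNFAIP6 the log2 signal was already lower in the untreated clone, by −2.89. Against that clone the ATRA groups differed by −0.54 (1 μM) and −0.52 (10 μM), and neither passed. The 250 bases before each start are in lower case and the match is in capitals.
CD44, chr11:35138921-35139170, plus strand: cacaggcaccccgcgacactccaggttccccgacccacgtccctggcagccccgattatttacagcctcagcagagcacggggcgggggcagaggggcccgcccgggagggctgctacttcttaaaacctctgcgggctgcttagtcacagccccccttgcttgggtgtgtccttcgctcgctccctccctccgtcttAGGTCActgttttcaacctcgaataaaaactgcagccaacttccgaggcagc
TNFAIP6, chr2:151357342-151357591, plus strand: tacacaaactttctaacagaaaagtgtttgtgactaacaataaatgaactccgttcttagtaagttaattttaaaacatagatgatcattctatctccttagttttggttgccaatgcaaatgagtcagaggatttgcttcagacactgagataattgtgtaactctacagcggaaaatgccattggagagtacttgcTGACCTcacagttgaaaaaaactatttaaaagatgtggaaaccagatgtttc

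In HAS3 (chromosome 16, 69083484 to 69118719) the half-site lay on the opposite strand, 20 to 25 bases after a start at 69107540, which is inside the span of the gene. The 30 bases around it are shown, with the match in capitals, because HAS3 differed most between ATRA-treated and untreated clone cells among the 6 genes at their brightest probe sets.
HAS3, chr16:69107548-69107577, plus strand: tcgcggctgcttTGACCTggtgggcgccgc

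The half-site was not in the window of HYAL2 (chromosome 3, 50317808 to 50322745). It was in 13.9% of all 27305 windows and in 11.7% of the 15842 windows of protein-coding genes, so its presence in 3 of 4 is a description of these windows and no evidence of binding. A pair of AGGTCA in the same direction with 5 bases of any kind between them was in 0.00366% of all windows, and in none of the 4. The bases before the start were 62.4% G or C in CD44, 66.0% in HAS3, 64.8% in HYAL2 and 34.4% in TNFAIP6. HAS2 and LAYN (chromosome 11, 111540280 to 111561745) are named without a window.

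The deposited values are intensities on a linear scale that the authors had normalized. The median of an array was 47.4 to 48.9, and 21.5 to 23.7% of the signals on an array were under 16, which is treated here as near background. Levels are log2 intensities, a change is a difference between 2 group means on that scale (1 is a doubling), and its error is the standard error (SE) of limma's moderated test. Rose and fell are kept for an adjusted p (Benjamini-Hochberg, over all 54613 probe sets) under 0.05. The arrays of trMCF clone 11 lay furthest apart, with a root mean square log2 difference of 0.57 between them, against 0.22 for 1 μM ATRA, 0.25 for 10 μM ATRA and 0.44 for MCF-10F. With 2 arrays in each group, their number limits the precision of every value, and a probe set is read only against itself across arrays.

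HAS2 and HAS3 moved in opposite directions in the transformed clone, and ATRA moved each the other way. HAS2, the synthase needed for hyaluronan in the embryonic heart of the mouse, was 14.4-fold lower in trMCF clone 11 than in MCF-10F and was 2.51-fold and 1.98-fold higher in the clone after 1 and 10 μM ATRA than without it. HAS3, the isoenzyme found in many epithelia, was 6.39-fold higher in the clone than in MCF-10F, and after ATRA it was 5.89-fold (1 μM) and 8.25-fold (10 μM) lower than in the clone. Both synthases had been named by the study from these same arrays, so their direction is not independent evidence.

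On the linear scale HAS2 (230372_at) had intensities of 23.6 and 27.9 in trMCF clone 11, 68.4 and 60.9 after 1 μM ATRA, 53.9 and 48.0 after 10 μM ATRA, and 410.5 and 334.4 in MCF-10F. The groups did not overlap, the order being MCF-10F, 1 μM ATRA, 10 μM ATRA and the untreated clone from high to low. The log2 change was −3.85 (SE 0.18) in trMCF clone 11 against MCF-10F (limma, adjusted p = 0.0031). HAS2 rose by 1.33 (SE 0.18) after 1 μM ATRA (adjusted p = 0.0399) and by 0.99 (SE 0.17) after 10 μM ATRA (adjusted p = 0.0221) against the untreated clone. Set against MCF-10F it was lower at both doses, by −2.52 (SE 0.18, adjusted p = 0.0109) at 1 μM and −2.86 (SE 0.17, adjusted p = 0.0011) at 10 μM. In log2 units, 34.5% of the difference between the clone and MCF-10F was undone at 1 μM and 25.6% at 10 μM. The neighbors in this order, 10 μM and 1 μM ATRA, differed by −0.34 (95% interval −0.74 to 0.05), which did not pass.

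The dimmer probe set of HAS2, 206432_at, gave the same order. Its gaps were wider except that between 1 μM ATRA and MCF-10F, which was −2.29 here and −2.52 at 230372_at. The share of the clone's difference undone was 54.5% at 1 μM and 39.1% at 10 μM, and it rests on clone values under 16. The intensities of 206432_at were 11.2 and 13.4 in trMCF clone 11, 87.7 and 75.7 after 1 μM ATRA, 51.7 and 44.0 after 10 μM ATRA, and 517.9 and 305.4 in MCF-10F. The clone's values were under 16, so the size of its changes is uncertain: −5.02 (adjusted p = 0.0047) against MCF-10F, with 2.73 (adjusted p = 0.0234) at 1 μM and 1.96 (adjusted p = 0.0109) at 10 μM against the clone in limma. Without trMCF clone 11 array 1, the rise of HAS2 at its brightest probe set after 1 μM had an adjusted p of 0.0650, and without 1 μM array 1 or 2 it was 0.383 or 0.386. The rise at 10 μM had 0.179 and 0.128 without 10 μM array 1 or 2, and 0.0643 without either 1 μM array. The fall at 1 μM against MCF-10F had 0.221 and 0.249 without 1 μM array 1 or 2, while the fall of HAS2 in the clone passed without any 1 of the arrays. Setting values under 16 to 16 left all values of 230372_at as they were, but the adjusted p of HAS2 became 0.122 at 1 μM and 0.0655 at 10 μM against the clone, and 0.0831 at 1 μM against MCF-10F.

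HAS3 (223541_at) had intensities of 339.6 and 490.5 in trMCF clone 11, 75.4 and 63.6 after 1 μM ATRA, 66.1 and 37.0 after 10 μM ATRA, and 76.1 and 53.6 in MCF-10F. Both arrays of the untreated clone stood above all other arrays, and the ranges of the ATRA groups overlapped those of MCF-10F. HAS3 rose by 2.68 (SE 0.26, adjusted p = 0.0141, limma) in trMCF clone 11 against MCF-10F. In the clone it fell by 2.56 (SE 0.26, adjusted p = 0.0239) after 1 μM ATRA and by 3.05 (SE 0.32, adjusted p = 0.0062) after 10 μM ATRA. Set against MCF-10F, the difference was 0.12 (95% interval −0.53 to 0.76) at 1 μM and −0.37 (95% interval −1.13 to 0.39) at 10 μM, and neither passed. The share of the clone's rise undone was 95.6% at 1 μM and 113.8% at 10 μM.

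The other HAS3 probe set, 1552980_at, stayed between 16.4 and 23.2 on all 8 arrays, close to background, and passed no test. Leaving out either 1 μM array raised the adjusted p of the HAS3 rise in the clone to 0.0911. The fall at 1 μM had 0.292 and 0.333 without 1 μM array 1 or 2, and the fall at 10 μM had 0.0576 without 10 μM array 2. A limma fit of the 4 arrays of the clone and MCF-10F alone gave the HAS3 rise the same adjusted p of 0.0911. It is the same test as leaving out a 1 μM array, because a lone array adds no spread to the fit. With values under 16 set to 16, which changed no value of 223541_at, the adjusted p of HAS3 was 0.0901 in the clone against MCF-10F and 0.118 at 1 μM against the clone.

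**Figure D1:**
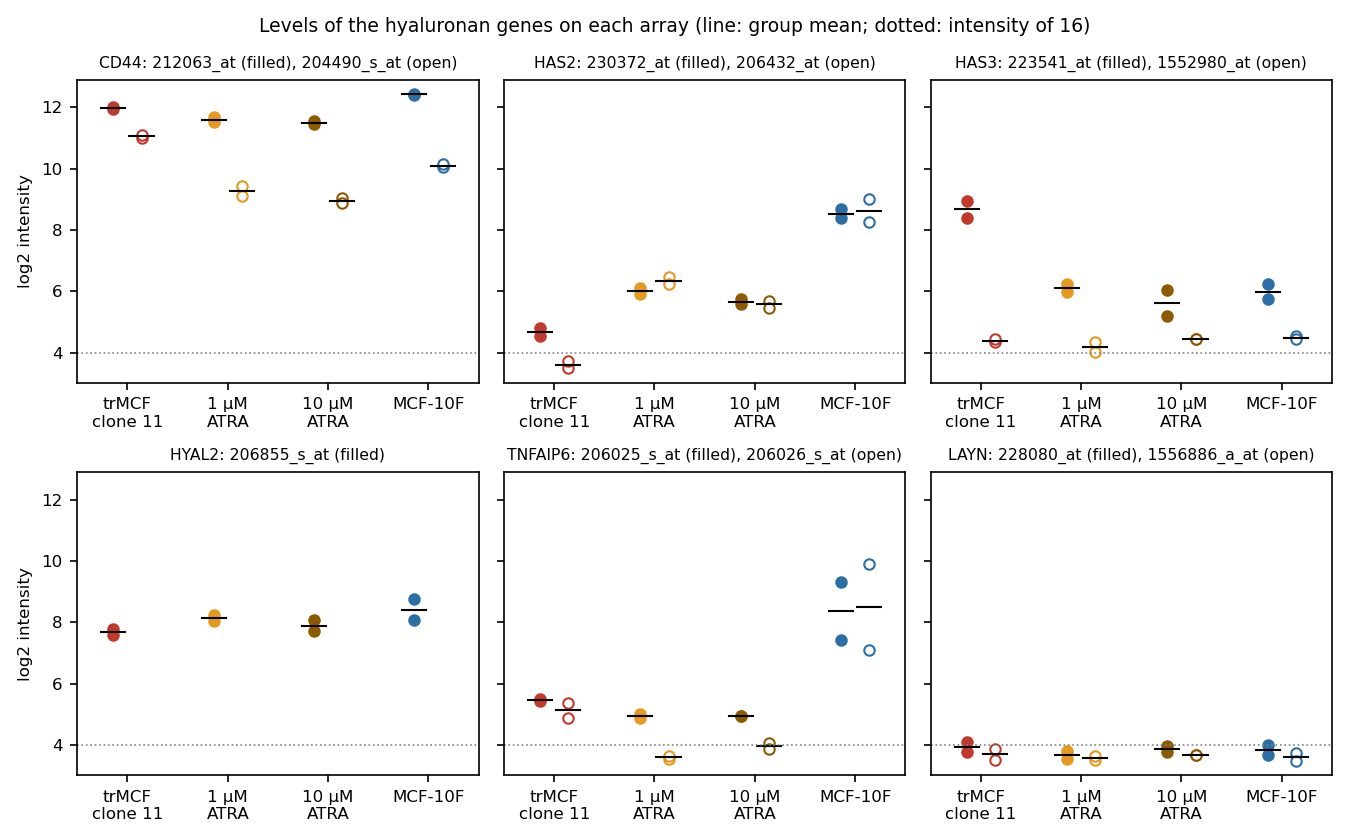
Log2 intensity (vertical axis, common to all panels) of each of the 6 genes on each array, with trMCF clone 11, 1 μM ATRA, 10 μM ATRA and MCF-10F from left to right; filled circles are the brightest probe set, open circles another one of the gene, and lines the mean of 2 arrays. HAS2 was lowest and HAS3 highest in the untreated clone, the MCF-10F arrays of TNFAIP6 lay at 7.43 and 9.31, and LAYN stayed near the dotted line at an intensity of 16 in every group; 11 more probe sets of CD44 and 1 of LAYN are not drawn.

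CD44 did not give a single answer across its probe sets. Of its 13, 10 were higher in trMCF clone 11 than in MCF-10F, but the brightest, 212063_at, was 1.36-fold lower. For these 10, the group means under both ATRA doses lay below those of the untreated clone and of MCF-10F. At 1 μM 12 of 13 were lower than in the clone and 7 fell by the test, with 1.55% of all probe sets called. At 10 μM all 13 were lower and 9 fell, with 6.2% of all probe sets called. CD44 had also been named by the study from these arrays, so the direction is not independent evidence, and probe sets of a gene share its transcripts and are not replicates.

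CD44 at 204490_s_at is an example of the larger set. Its log2 levels were 11.00 and 11.11 in trMCF clone 11, 9.42 and 9.11 after 1 μM ATRA, 9.04 and 8.87 after 10 μM ATRA, and 10.06 and 10.14 in MCF-10F. The 4 groups did not overlap, with the untreated clone highest and 10 μM ATRA lowest. The rise in the clone was 0.96 (SE 0.17, adjusted p = 0.0443, limma). Under ATRA it fell in the clone, with a difference of −1.79 (SE 0.17, adjusted p = 0.0201) at 1 μM and −2.10 (SE 0.16, adjusted p = 0.0024) at 10 μM, and 187% and 219% of the rise were undone. At 10 μM it was also below MCF-10F, by −1.14 (SE 0.16, adjusted p = 0.0188), and at 1 μM the difference from MCF-10F was −0.83 (adjusted p = 0.158).

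The brightest CD44 probe set, 212063_at, had log2 levels of 11.95 and 12.01 in trMCF clone 11, 11.68 and 11.52 after 1 μM ATRA, 11.56 and 11.44 after 10 μM ATRA, and 12.44 and 12.40 in MCF-10F. The clone lay between MCF-10F and the ATRA groups, and the ranges of both ATRA doses overlapped. It differed by −0.44 (SE 0.14, adjusted p = 0.164, limma) in the clone against MCF-10F, and against the clone by −0.38 (adjusted p = 0.238) at 1 μM and −0.48 (adjusted p = 0.0864) at 10 μM, none of which passed. Only its difference of −0.92 (SE 0.13, adjusted p = 0.0222) at 10 μM against MCF-10F passed. That call had adjusted p-values of 0.0551 to 0.229 without any 1 of the MCF-10F, 10 μM or 1 μM arrays.

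On each array, 212063_at exceeded the median of the other 12 CD44 probe sets by a gap that is compared here only between arrays. The log2 gap was 2.12 and 2.37 in trMCF clone 11, 3.16 and 3.36 after 1 μM ATRA, 3.47 and 3.29 after 10 μM ATRA, and 3.30 and 3.46 in MCF-10F. Both arrays of the untreated clone had a smaller gap than the other 6 arrays, whose values overlapped between groups. Which transcripts each probe set reads was not tested, since probe positions were not used here.

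Among the other probe sets of CD44, 6 lay higher in the clone than in MCF-10F by 0.88 to 1.06, with adjusted p-values just above the threshold. They were 204489_s_at (0.95, adjusted p = 0.0514), 209835_x_at (0.97, adjusted p = 0.0664), 212014_x_at (0.998, adjusted p = 0.0557), 210916_s_at (0.88, adjusted p = 0.0640), 229221_at (1.01, adjusted p = 0.0518) and 234411_x_at (1.06, adjusted p = 0.0506, limma). CD44 at 1557905_s_at was also higher in the clone, but further from the threshold (0.76, adjusted p = 0.183). Against the clone it differed by −1.57 (adjusted p = 0.0529) at 1 μM and −1.74 (adjusted p = 0.0117) at 10 μM. CD44 at 216056_at, with log2 levels of 6.76 and 6.62 in the clone and 5.56 and 5.24 in MCF-10F, rose by 1.29 (adjusted p = 0.0305). The log2 differences of the 7 probe sets that fell at 1 μM ranged from −1.51 at 234411_x_at to −1.87 at 212014_x_at. The 9 that fell at 10 μM ranged from −1.39 at 234411_x_at to −2.10 at 204490_s_at. For CD44 at 217523_at the 2 clone arrays lay apart, at 9.80 and 11.01, and none of its 3 differences, 0.66 in the clone against MCF-10F, −1.44 at 1 μM and −1.62 at 10 μM against the clone, passed (adjusted p = 0.453, 0.145 and 0.0521).

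CD44 at 1565868_at was lower in the clone than in MCF-10F like 212063_at (−0.48, adjusted p = 0.383), with log2 levels of 5.43 to 6.67 over all arrays. CD44 at 234418_x_at was near background everywhere, with intensities of 6.79 to 9.31, and carries no direction. Over all 13 CD44 probe sets the median change was 0.95 in trMCF clone 11 against MCF-10F, −1.57 at 1 μM and −1.74 at 10 μM against the clone, and −0.78 at 1 μM and −0.94 at 10 μM against MCF-10F.

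The count of CD44 probe sets that passed moved with the arrays used. In the clone against MCF-10F it was 2, and 0 to 5 with 1 array left out: 0 without MCF-10F array 1 or 2 or 1 μM array 1 or 2, 1 without clone array 1 and 5 without clone array 2. It was 8 with all 8 arrays in the fit. At 1 μM against the clone it was 7, and 0 without 1 μM array 1 or 2. At 10 μM against the clone it was 9, and 1 without 10 μM array 1 or 2. With values under 16 set to 16 the counts were 0, 0 and 7. All of them came from limma with the adjusted p. The share of all probe sets called under each setting is not given here, so these shifts are not read as particular to CD44.

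**Figure D2:**
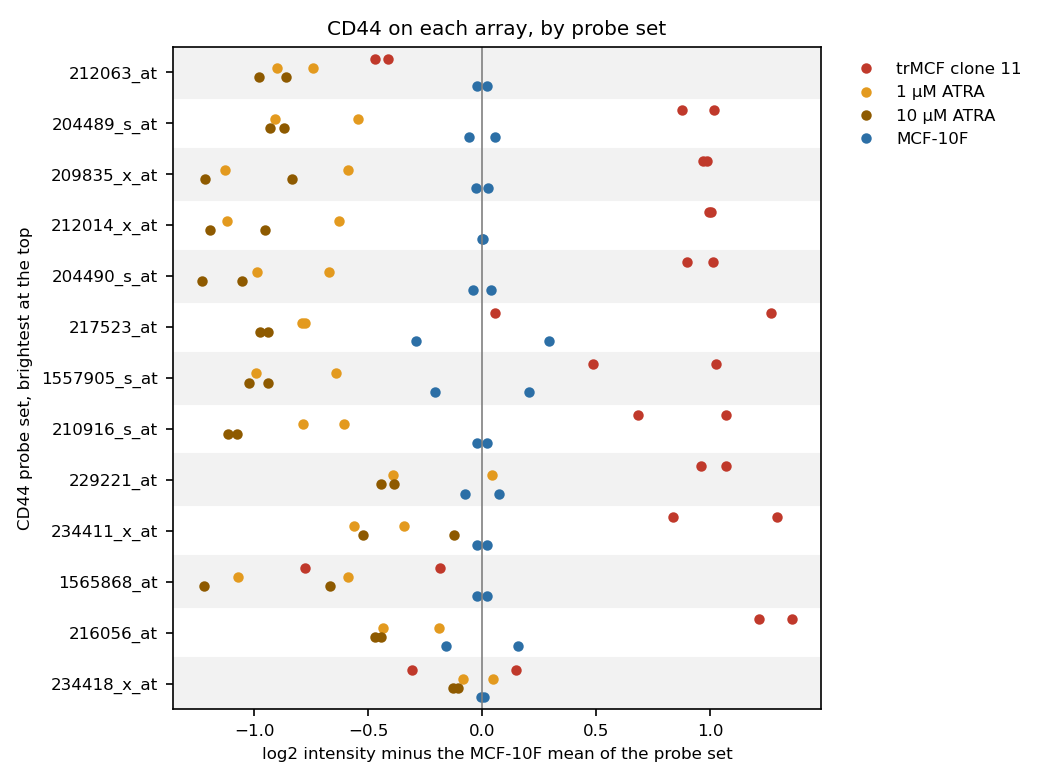
Log2 intensity of the 13 CD44 probe sets on each array, minus the MCF-10F mean of the same probe set (horizontal axis), with rows in order of brightness; each point is 1 array. In 10 rows the mean of the untreated clone lies right of 0 while the means of both ATRA groups lie left of it, and in the top row, 212063_at, the clone lies left of 0 at −0.44 on average.

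Of the other 3 genes, TNFAIP6 had the largest difference, and HYAL2 and LAYN had none that passed. TNFAIP6 (206025_s_at) had intensities of 43.5 and 45.7 in trMCF clone 11, 32.2 and 29.3 after 1 μM ATRA, 31.1 and 31.0 after 10 μM ATRA, and 172.4 and 634.4 in MCF-10F. Both MCF-10F arrays were above the other 6 arrays, but they lay far from each other, while the clone's arrays were above those of both ATRA groups by little. The log2 difference was −2.89 (SE 0.56) in the clone against MCF-10F and just missed the threshold (limma, adjusted p = 0.0557). It was −3.43 (SE 0.56, adjusted p = 0.0990) at 1 μM and −3.41 (SE 0.51, adjusted p = 0.0257) at 10 μM against MCF-10F, and only the last passed.

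For TNFAIP6 the MCF-10F arrays decided the size of the change. The difference in the clone was −3.83 (adjusted p = 0.0124) without MCF-10F array 1 and −1.95 (adjusted p = 0.0241) without array 2, where the lone array is assumed to vary like the other groups. At 1 μM against MCF-10F it was −4.37 (adjusted p = 0.0133) and −2.49 (adjusted p = 0.0275), and the fall at 10 μM had adjusted p-values of 0.0822 to 0.227 without any 1 of the ATRA arrays and 0.130 with values under 16 set to 16. Against the clone, ATRA gave −0.54 (95% interval −1.93 to 0.85) at 1 μM and −0.52 (95% interval −1.73 to 0.68) at 10 μM. The log2 levels of the other TNFAIP6 probe set, 206026_s_at, were 4.89 and 5.38 in the clone, 3.56 and 3.66 at 1 μM, 4.07 and 3.87 at 10 μM, and 7.09 and 9.88 in MCF-10F. It gave the same order between MCF-10F and the rest, and passed at 10 μM against MCF-10F (−4.51, adjusted p = 0.0378).

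HYAL2, an enzyme anchored to the cell surface that cuts long hyaluronan chains, had intensities of 219.0 and 191.9 in trMCF clone 11, 265.7 and 301.0 after 1 μM ATRA, 210.2 and 267.5 after 10 μM ATRA, and 428.6 and 271.0 in MCF-10F. The clone's arrays were below those of MCF-10F and of 1 μM ATRA, and they overlapped the range of 10 μM ATRA. The log2 difference was −0.73 (95% interval −1.34 to −0.13, adjusted p = 0.176, limma) in the clone against MCF-10F, 0.46 (−0.14 to 1.07) at 1 μM and 0.21 (−0.36 to 0.78) at 10 μM against the clone. None passed after adjustment, and the intervals do not show that the groups are alike.

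LAYN was near background in all groups. Its brightest probe set, 228080_at, had intensities of 17.3 and 13.8 in trMCF clone 11, 13.9 and 11.5 after 1 μM ATRA, 13.6 and 15.8 after 10 μM ATRA, and 16.2 and 12.7 in MCF-10F. The 4 groups overlapped, and the 2 other LAYN probe sets lay between 9.24 and 14.6. The largest difference of 228080_at was −0.29 (95% interval −0.80 to 0.23) at 1 μM against the clone, and LAYN is given no direction.

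**Figure D3:**
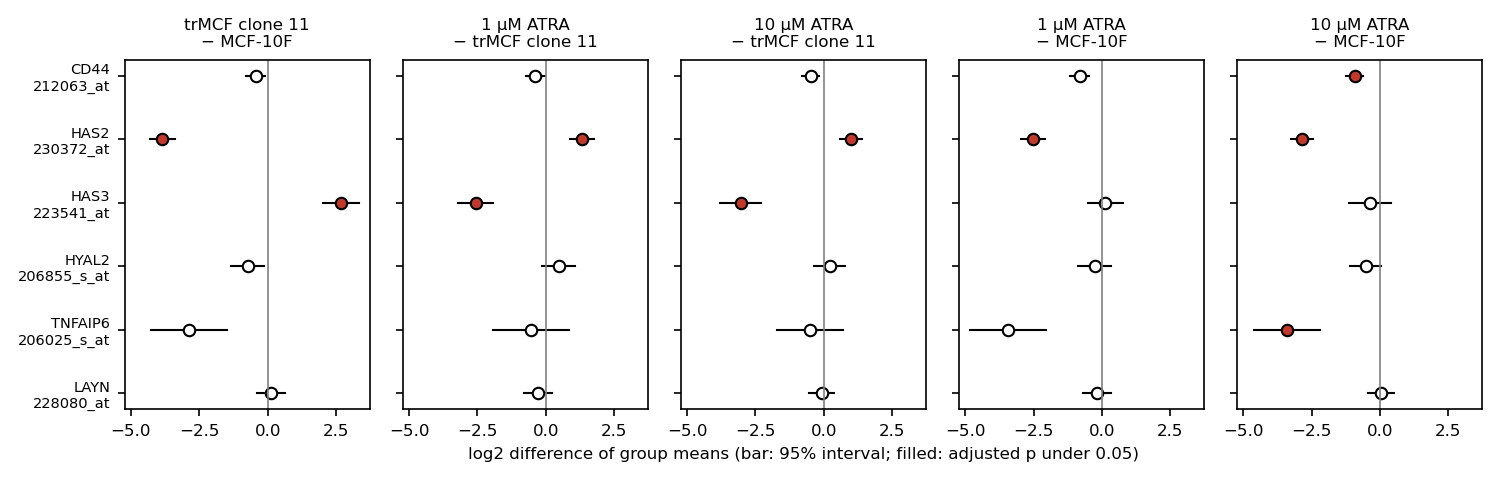
Log2 difference of group means (horizontal axis) for the brightest probe set of each gene in 5 comparisons, with 95% intervals from the moderated test; filled circles passed an adjusted p under 0.05. HAS2 and HAS3 lie on opposite sides of 0 in the first 3 panels, and TNFAIP6 has the widest intervals.

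Counted by brightest probe set, 2 of the 6 genes passed in trMCF clone 11 against MCF-10F, where 4.53% of all genes and 3.56% of all probe sets passed. Again 2 passed at 1 μM against the clone (1.9% of genes, 1.55% of probe sets) and 2 at 10 μM against the clone (7.83% of genes, 6.2% of probe sets), which were HAS2 and HAS3 each time. Against MCF-10F, HAS2 alone passed at 1 μM (0.612% of genes, 0.396% of probe sets). At 10 μM 3 passed, HAS2, CD44 and TNFAIP6 (2.56% of genes, 1.8% of probe sets). The 1 μM comparisons were fitted on 6 arrays and those with 10 μM on all 8. In a fit of all 8 arrays, 3 of the 6 genes passed at 1 μM against MCF-10F too.

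By a fold of at least 2 with an unadjusted p of at most 0.05, the criterion the study states, 3 of the 6 genes were called in the clone against MCF-10F, with 9.2% of all genes called. By this criterion 2 genes were called at 1 μM against the clone (7.89%), 2 at 1 μM against MCF-10F (3.72%), 1 at 10 μM against the clone (8.33%) and 2 at 10 μM against MCF-10F (4.51%). CD44 was called by it at 3 of 13 probe sets in the clone against MCF-10F (7.74% of all probe sets), at 10 of 13 under either dose against the clone (6.77% at 1 μM and 7.13% at 10 μM), and at 4 of 13 at 10 μM against MCF-10F (3.41%). It called 0 of 13 at 1 μM against MCF-10F (2.79%). On the values used here the criterion called 4229 probe sets in the clone against MCF-10F, 3699 at 1 μM against the clone and 1521 at 1 μM against MCF-10F. Each count exceeds that of the study's own list, so these calls are not the study's.

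The ATRA doses, set against each other, did not differ at any gene by the adjusted test (limma, 0% of genes and 0% of probe sets at 10 against 1 μM). At an unadjusted p under 0.05 there were 334 genes (1.69%), and the fold criterion called 0.101% of genes and 0.0586% of probe sets, none of them of the 6 genes. The log2 levels of HAS2 at 206432_at were 5.69 and 5.46 at 10 μM and 6.46 and 6.24 at 1 μM, without overlap. Its difference was −0.77 (95% interval −1.38 to −0.17, unadjusted p = 0.0194), and in a fit of these 4 arrays alone it had an adjusted p of 0.639. CD44 at 210916_s_at differed by −0.40 (95% interval −0.79 to −0.01), HAS3 by −0.49 (−1.25 to 0.28) and TNFAIP6 by 0.01 (−1.19 to 1.22) between 10 and 1 μM. The interval of HAS3 leaves room for a difference of 2-fold between the doses. That of TNFAIP6 draws on the MCF-10F arrays, which lay far apart, and in a fit of the 4 ATRA arrays alone it was −0.25 to 0.28.

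Other genes of hyaluronan were taken from a list of 45 synthases, hyaluronidases, receptors, matrix binders and enzymes of UDP-sugar supply, of which 40 had a probe set of their own. In trMCF clone 11 against MCF-10F 2 rose and 4 fell, with a median change of 0.09 beside 0.06 over all genes, of which 4.53% were called. In the clone, 2 rose and 1 fell at 1 μM (median −0.26, all genes −0.06, 1.9% called), and 2 rose and 5 fell at 10 μM (median −0.11, all genes −0.01, 7.83% called). Against MCF-10F none rose, 2 fell at 1 μM (median −0.12, 0.612% of all genes called) and 5 fell at 10 μM (median −0.07, 2.56% called). The 6 genes above are part of this list and give several of these calls.

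TLR4, an innate immune receptor that responds to hyaluronan fragments, moved in the same directions as HAS2. Its log2 levels were 3.11 and 3.57 in trMCF clone 11, 5.83 and 5.94 after 1 μM ATRA, 5.88 and 5.97 after 10 μM ATRA, and 6.65 and 6.12 in MCF-10F. It fell by 3.04 in the clone against MCF-10F (difference −3.04, adjusted p = 0.0093, limma), and rose by 2.55 (adjusted p = 0.0215) at 1 μM and 2.58 (adjusted p = 0.00345) at 10 μM against the clone. The intensities of TLR4 in the clone were 8.65 and 11.8, under 16, so the sizes of these changes are uncertain. TLR4 had been named by the study from these arrays too.

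VCAN (versican), a large matrix proteoglycan that binds hyaluronan, was lowest under ATRA. Its log2 levels were 8.59 and 10.02 in trMCF clone 11, 8.01 and 7.46 after 1 μM ATRA, 7.37 and 7.0 after 10 μM ATRA, and 11.91 and 11.53 in MCF-10F. VCAN fell at 10 μM against the clone (−2.12, adjusted p = 0.0389) and at both doses against MCF-10F (−3.98, adjusted p = 0.0467 at 1 μM and −4.54, adjusted p = 0.00585 at 10 μM, limma).

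Among hyaluronidases and hyaluronan-degrading proteins, HYAL3 fell in the clone against MCF-10F (−1.27, adjusted p = 0.0236, limma). CEMIP, which binds hyaluronan and takes part in its breakdown, fell at 10 μM against the clone (−1.10, adjusted p = 0.0426) and against MCF-10F (−1.41, adjusted p = 0.0380). At 1 μM CEMIP was lower still without passing, by −1.53 (adjusted p = 0.0533) against the clone and −1.84 (adjusted p = 0.0646) against MCF-10F. In UDP-sugar supply, GNPNAT1, an acetyltransferase of the hexosamine pathway, fell in the clone against MCF-10F (−1.83, adjusted p = 0.0323), and HK1, a hexokinase, rose there (1.14, adjusted p = 0.0239). HK1 and HK2 fell at 10 μM against the clone (−0.61, adjusted p = 0.0446 and −1.24, adjusted p = 0.0405, limma). Neither passed at 1 μM, where the log2 levels were 11.46 and 11.43 for HK1, and 10.05 and 9.98 for HK2. At 10 μM they were 11.63 and 11.52 for HK1, and 10.00 and 9.46 for HK2. No gene of link proteins or of the inter-alpha-trypsin inhibitor heavy chains, which TNFAIP6 transfers to hyaluronan, passed in any of these comparisons.

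**Figure D4:**
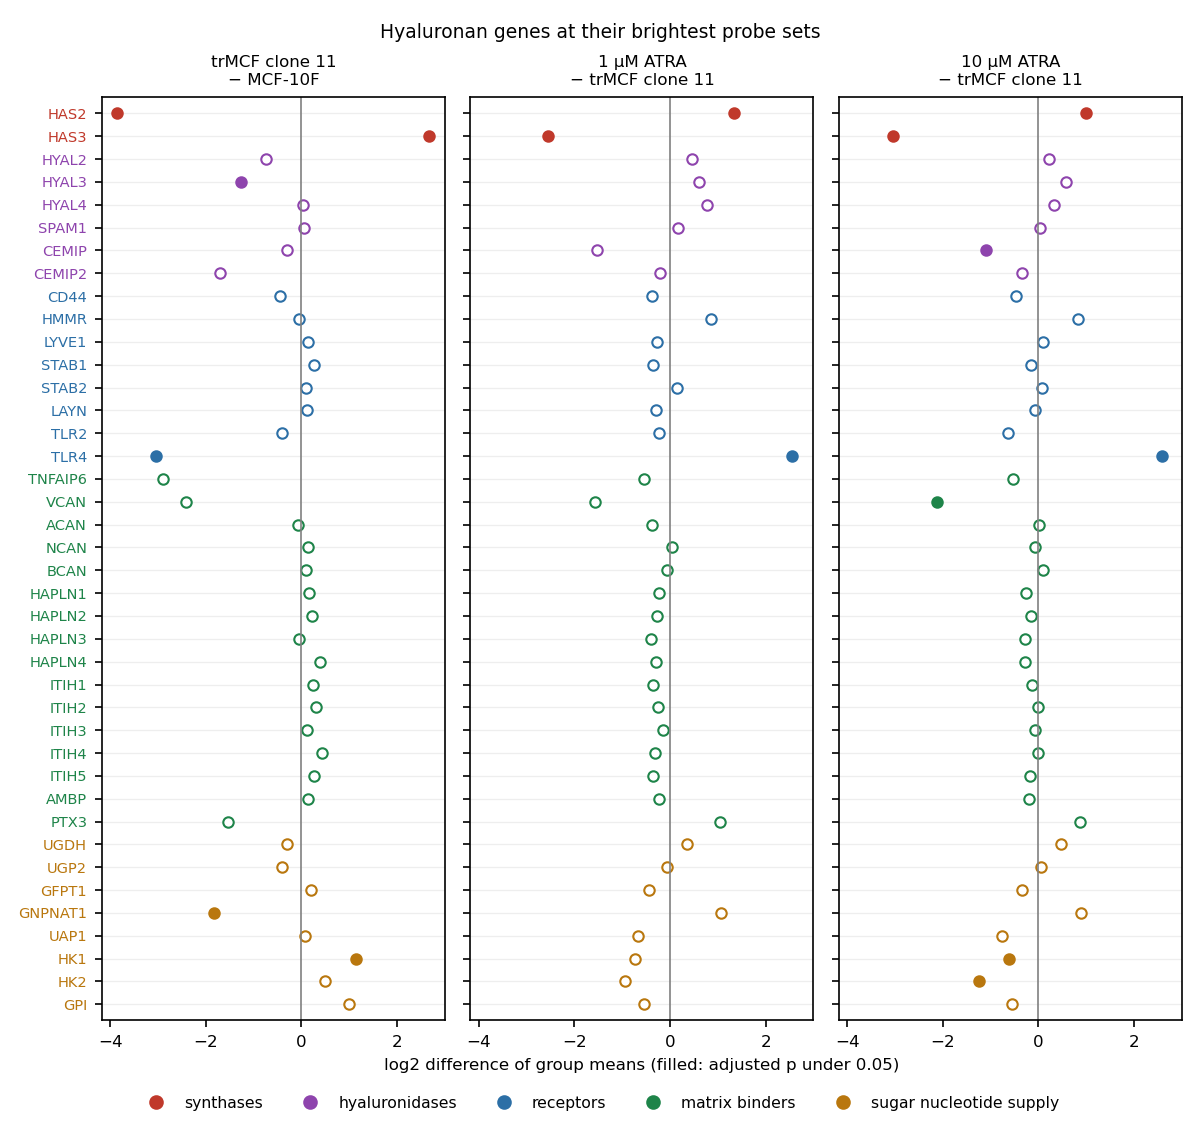
Log2 difference of group means (horizontal axis) for the 40 measured genes of the hyaluronan list, each at its brightest probe set, in 3 comparisons; colors mark the role and filled circles passed an adjusted p under 0.05. HAS2 and TLR4 lie left of 0 in the first panel and right of it in the others, and HAS3 the other way round.

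Of 11 genes for partners of CD44 at the membrane and for its shedding, none passed in the clone against MCF-10F or at 1 μM in limma (1 and 3 at an unadjusted p under 0.05, as had 22.9% and 21.6% of all genes). At 10 μM against the clone RDX (radixin), which links CD44 to actin, rose by 0.96 (adjusted p = 0.0254). NF2 (merlin), a related protein, rose there by 1.24 (adjusted p = 0.0405), with 7.83% of all genes called. The log2 levels of NF2 were 8.12 and 8.44 in the clone, 9.56 and 9.69 at 1 μM, and 9.47 and 9.57 at 10 μM. Of 8 measured factors of CD44 splicing, HNRNPM rose by 1.19 (adjusted p = 0.0357) and SRSF3 by 0.86 (adjusted p = 0.0495) at 10 μM against the clone. Of all genes, 7.83% were called there. HNRNPM was at 10.33 and 11.07 in the clone, 11.89 and 12.06 at 1 μM, and 11.80 and 11.98 at 10 μM. In the fit of 6 arrays none of the 8 passed in the clone against MCF-10F (median −0.49) or at 1 μM against the clone (median 0.57). In each, 6 of 8 had an unadjusted p under 0.05, beside the same 22.9% and 21.6% of all genes. ESRP1, which favors variant forms of CD44 in epithelial cells, had log2 levels of 12.14 and 12.54 in the clone, 11.70 and 11.79 at 1 μM, 11.71 and 11.88 at 10 μM, and 11.15 and 11.65 in MCF-10F, without passing. Like ESRP1, HNRNPA1 and KHDRBS1 were higher on both clone arrays than on both MCF-10F arrays. TRA2B, SRSF1, SRSF3 and HNRNPM were lower on both, and PCBP1 overlapped. The share of all genes with arrays apart in this way was not counted, so these orders are a description only. The part of these factors in the CD44 signals was not tested.

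By pattern over the 8 arrays, the genes most like HAS2 were CORO1A (Pearson's r = 0.991), MOSPD1 (0.989) and RPL39L (0.988). Most like HAS3 were MRAP2 (0.993), GJA3 (0.988) and PROCR (0.987). Most like TNFAIP6 were ZMAT3 (0.989), RNLS (0.985) and ST6GAL1 (0.972). They were sought among about 2631 genes with a mean log2 level of at least 6 and a range of group means of at least 1, and r is a description, because the arrays fall into 4 groups. For CD44 at 212063_at, HYAL2 and LAYN the group means spanned less than 1 (0.92, 0.73 and 0.29), so no such gene was sought.

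Of 7 measured markers of breast epithelium, CDH1, EPCAM, KRT5, KRT8 and KRT18 were at log2 levels of 11.29 to 13.90 on every array. KRT19 was low on all of them, at 4.73 to 6.17. KRT14, a basal keratin, was at 11.66 and 12.15 in the untreated clone, 7.73 and 6.86 after 1 μM ATRA, 5.40 and 5.09 after 10 μM ATRA, and 13.16 and 10.38 in MCF-10F, whose arrays stood on both sides of the clone. It fell at 10 μM against the clone (−6.66, adjusted p = 0.00836) and against MCF-10F (−6.52, adjusted p = 0.0127, limma).

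The summed intensity of 7 fibroblast markers was 468 to 684 in trMCF clone 11, 310 to 316 at 1 μM, 330 to 333 at 10 μM, and 1052 to 1783 in MCF-10F, where HAS2 and TNFAIP6 were also highest. Between the MCF-10F arrays the sum was higher on array 1 (1783 against 1052), as was HAS2 (410.5 against 334.4). TNFAIP6 was lower on array 1 (172.4 against 634.4). COL1A1 made up most of that sum in the clone and in MCF-10F, with intensities of 252 and 495 in the clone, 112 and 110 at 1 μM, 82.9 and 81.0 at 10 μM, and 1338 and 560 in MCF-10F. COL1A2 and DCN fell in the clone against MCF-10F (−2.56 and −1.22, adjusted p = 0.0049 and 0.0451, limma). At 10 μM against the clone COL1A1 fell (−2.11, adjusted p = 0.0377) and LUM, near background on all arrays, rose (1.08, adjusted p = 0.0264). Against MCF-10F, COL1A2 fell at both doses (−2.57 at 1 μM, adjusted p = 0.00684, and −2.41 at 10 μM, adjusted p = 0.000752) and COL1A1 at 10 μM (−3.40, adjusted p = 0.0149). COL3A1 and PDGFRA were at 3.87 to 4.67 on all arrays, near background.

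The summed intensity of 3 leukocyte genes, carried by CD14, was 175 to 248 in the clone, 504 to 599 at 1 μM, 661 to 738 at 10 μM and 119 to 469 in MCF-10F, while PTPRC was under an intensity of 16 on all arrays. That of 3 endothelial genes, carried by PECAM1, was 189 to 321 in the clone, 647 to 826 at 1 μM, 883 to 1249 at 10 μM and 158 to 1127 in MCF-10F, and CDH5 was at 12.8 to 22.8 on all arrays, near background. Both sums were higher in the ATRA groups than in the untreated clone, as HAS2 was, and neither CD14 nor PECAM1 passed in any comparison. The part of these markers in the results was not tested.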

How the data were processed

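Expression was measured on 8 Affymetrix U133 Plus 2.0 arrays, 2 in each of 4 groups taken from the sample titles. The deposited values are intensities on a linear scale, summarised per probe set and normalized by the authors before deposit. Iterative Plier and Microarray Suite (global scaling) are both named in the methods. Which of them produced the table was not given in the sources used here. Low signals depend on an unknown background correction. Log2 was taken without rescaling. The table held 54675 probe sets, and 62 of these were controls and were not analysed. Of the rest, 41091 named 1 gene, 1801 several and 11721 none, and 1 that names HAS3 with another gene was not used as a member.

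Groups were compared with limma 3.58.1 in R 4.3.3 (lmFit and eBayes, 1 mean per group, no covariate) over all probe sets. The study's 3 comparisons left out the 10 μM arrays and so used 6. Those with 10 μM used all 8. The script was tested on simulated data with known changes. The 6 genes and the gene lists were chosen with earlier results of these data known. The genes of each list are those written down for their role, with no choice by value. Named ones are the members and the list genes past the adjusted threshold, beside the measured CD44 splicing factors and the marker genes. Those factors and the marker genes were chosen for naming after their values were seen. Promoter bases are from RefSeq tables of GRCh38.p14. Alternatives were other sets of arrays, the replicate number as a block, a floor of 16, quantile normalization, a robust prior with a trend, a filter that drops the 33% dimmest probe sets, the fold criterion, other ways to choose a gene's probe set, and each array left out in turn. Counts of CD44 probe sets under these settings were added after seeing the data. Figures were drawn with matplotlib 3.10.9.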

Additional observations from a re-analysis of the deposited data

How the results depend on the processing

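Main counts of the 6 genes that passed were 2 (clone against MCF-10F), 2 and 1 (1 μM against the clone and MCF-10F), 2 and 3 (10 μM against the clone and MCF-10F) and 0 (10 against 1 μM), and for the 40 genes of the hyaluronan list 6, 3, 2, 7, 5 and 0. With only the 4 arrays compared, the 6 genes gave 1 in the clone against MCF-10F and 1 at 10 μM against each reference, and the list 1, 2 and 3. With all 8 arrays in the fit, the 1 μM comparison with MCF-10F gave 3 of the 6 genes and 5 of the list, and that with the clone 5 of the list. Setting values under 16 to 16 gave 1, 0, 0 and 1 of the 6 genes in the first 4 comparisons, and 1, 0, 0, 3 and 2 of the list in the first 5. The cause was not tested, and the share of all genes called under each of these settings is not given here. The fold criterion gave 10, 6 and 5 of the list in the clone and at 1 μM, and 2 and 1 of the 6 genes at 1 μM against MCF-10F and 10 μM against the clone. The mean over probe sets gave 5 of the list at 1 μM against the clone, and probe sets without a shared-target suffix gave 1, 4 and 2 of the list at 1 μM against MCF-10F and at 10 μM against the clone and MCF-10F.

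The replicate number of the titles pairs nothing that the labels describe, and deviations of same-numbered arrays correlated between −0.06 and 0.35 across group pairs. With the replicate block, 1 of the 6 genes passed at 1 μM against the clone, where HAS2 had an adjusted p of 0.0656, and the list gave 1 at 1 μM against MCF-10F and 4 at 10 μM against the clone. The counts of the 6 genes in the other comparisons did not move under the block.

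With 1 array left out, the 6 genes gave 1 to 3 in the clone against MCF-10F, 0 to 2 at 1 μM against the clone and against MCF-10F, 0 to 2 at 10 μM against the clone and 1 to 3 against MCF-10F, and the list gave 1 to 9, 0 to 8, 0 to 3, 0 to 10 and 1 to 6. Leaving out any array removes 1 residual degree of freedom from the fit. The arrays of the ATRA groups lay closest together (root mean square log2 difference 0.22 and 0.25, against 0.44 in MCF-10F and 0.57 in the clone). How far this bears on the counts was not tested.

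Of the changes of single genes, CD44 turned to 0.66 in the clone against MCF-10F as the mean of its probe sets. HAS3 at 1 μM against MCF-10F was −0.094 as a mean of probe sets and −0.14 to 0.37 with 1 array left out, and at 10 μM against MCF-10F −0.79 to 0.048. With 1 array left out, HYAL2 at 1 μM against MCF-10F was −0.60 to 0.061 and TNFAIP6 at 10 against 1 μM −0.053 to 0.083 (−0.025 under quantile normalization). LAYN was then −0.066 to 0.287 in the clone and −0.351 to 0.00094 at 1 μM against MCF-10F, and at 10 μM −0.239 to 0.084 against the clone and −0.14 to 0.209 against MCF-10F. With the floor LAYN was −0.0075 at 10 μM against MCF-10F and 0 between doses. None of these was past the threshold in the main fit. Over all alternatives and single changes, 509 values kept direction and side, 37 lost the threshold, 13 gained it and 17 turned direction. With 21.5 to 23.7% of signals under 16, changes of LAYN, TLR4 and of dim HAS2, HAS3 and TNFAIP6 probe sets have uncertain sizes.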
